A study of Mus musculus with 30 samples.

Results

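The genes described here are 8 mouse genes of innate RNA recognition and RNA editing: Ifih1, Ddx58 (also named Rigi), Dhx58, Zbp1, Tlr3, Tlr7, Mavs and Adar. They were chosen by name, and all 8 were among the 39676 genes in the count table and among the 15926 genes that passed a filter on low counts. RNA was sequenced from 30 whole tumors harvested at day 8 after inoculation, 10 of each of 3 types. The B16-GFP type arose from B16-F10 melanoma cells transduced with an eGFP retrovirus that carried no interferon, the B16-IFNA4 type from cells carrying the interferon alpha 4 gene linked to eGFP by an internal ribosome entry site, and the B16-IFNA9 type from cells carrying interferon alpha 9 in the same way. In every type the viral long terminal repeat drove the transgene, and every type also carried herpes simplex glycoprotein B, cyan fluorescent protein, firefly luciferase and puromycin resistance. The hosts were female C57BL/6 mice with a functional interferon receptor, and by the study's methods these were typically young adults. Each type came from a single sorted transduced line, so the transgene and other properties of that line cannot be told apart.

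Cells recognise foreign or misplaced RNA with receptors in the cytosol and in endosomes. The cytosolic helicases RIG-I (encoded by Ddx58) and MDA5 (Ifih1) bind short 5′-triphosphate RNA and long dsRNA, respectively, and signal through the mitochondrial adaptor MAVS to type I interferon, while the related helicase LGP2 (Dhx58) lacks signaling domains and modulates both. TLR3 binds dsRNA and TLR7 binds single-stranded RNA in endosomes, ZBP1 binds Z-form nucleic acid and can start necroptosis, and the adenosine deaminase ADAR edits dsRNA to inosine and so keeps self RNA from being read as foreign by MDA5 and ZBP1. Many of these genes are themselves known interferon-stimulated genes, which the factor ISGF3 activates at interferon-stimulated response elements (ISREs). Adar is known to make a long isoform from an interferon-inducible start and a short isoform from constitutive starts, and counts per gene do not separate them.

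The RefSeq promoter table for GRCm38.p6 held 7 promoters for 5 of the 8 genes, each spanning 250 bases before to 50 bases after a start site. Both strands were searched for an ISRE core (TTTC, any 2 bases, TTTC), which 3.44% of 32851 promoters held, for the shorter core bound by interferon regulatory factors (TTTCNNTT, overlapping the ISRE core and added after the promoters had been read), which 23.9% held, and for the STAT dimer element (TTCNNNGAA), which 8.3% held. The windows below are shown because they hold matches of the 4 genes whose levels differed between tumor types, followed by the 60 bases before the start of Mavs, which held none of the 3. All are written 5′ to 3′ on the strand of the gene, and capitals mark 1 match in each window. The Ifih1 window (chr2:62646206-62646233, minus strand) holds an ISRE core on the opposite strand at bases 33 to 42 after the start, and a shorter core at bases 29 to 36 that overlaps it is not capitalized. The first Ddx58 window (chr4:40239804-40239833, minus strand) holds an ISRE core at bases 3 to 12 after the start, and the other (chr4:40239867-40239894, minus strand) a regulatory factor core upstream, as does the Tlr3 window (chr8:45410422-45410449, minus strand). The Adar window (chr3:89730737-89730764, plus strand) lies at the most downstream of its 3 annotated promoters in the table, and the other 2 held neither the ISRE core nor the shorter core. Beside the capitalized shorter core at bases 30 to 37 after that start, the Adar window holds a STAT dimer element at bases 23 to 31, which overlaps it and is otherwise left in lower case. The Mavs stretch is at chr2:131234003-131234062, plus strand.
Ifih1: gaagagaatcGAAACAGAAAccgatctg
Ddx58, ISRE core: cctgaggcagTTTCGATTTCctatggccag
Ddx58, upstream: ctaggttcagAAACGAAActggatcccc
Tlr3: agtgaatggcTTTCACTTtgtttagaca
Adar: cttttcaaggAAACGAAAgtgaactctg
Mavs: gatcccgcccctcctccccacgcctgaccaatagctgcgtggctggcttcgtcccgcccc

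The libraries held 14598517 to 19788383 counts assigned to genes. Levels are given as CPM, counts scaled to a common library size by the trimmed mean of M-values (TMM). Differences are log2 fold changes from edgeR (quasi-likelihood F test), with a call at 0.05 on the p-value adjusted (Benjamini-Hochberg) for the 15926 genes tested. Melanocyte marker RNA was present in every tumor, with a sum of Tyr, Tyrp1 and Mitf of 7220 to 22900 CPM in B16-GFP, 2160 to 3640 in B16-IFNA4 and 3370 to 8930 in B16-IFNA9. B16-GFP replicate 7 stood apart, with the smallest library and a TMM factor of 0.768 against a highest of 1.1, and it gave the lowest B16-GFP level for 6 of the 8 genes. As these are bulk samples, more cells of a type that expresses a gene and more RNA per cell cannot be told apart.

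Both interferon-secreting types held more RNA of 7 of the 8 genes than B16-GFP, and Mavs was the exception. Zbp1, Dhx58 and Ifih1 differed most in B16-IFNA4, by 9.1, 8.15 and 6.96 times, and Adar and Tlr3 least among the 7, by 2.89 and 3.22 times. In B16-IFNA9 the range over the same 7 genes ran from 2.23 times for Tlr7 to 8.71 times for Zbp1. Called higher were 7 of 8 in B16-IFNA4, where 31.3% of all tested genes were called higher, 34.1% lower and 65.4% in either direction, and 7 of 8 in B16-IFNA9, where 26.9% were called higher, 28.7% lower and 55.6% in either direction. The 10 B16-IFNA4 tumors all lay above the 10 B16-GFP tumors for 7 genes (8.5% of tested genes) and the 10 B16-IFNA9 tumors for 6 (4.44%). The median log2 fold change over the 8 genes was 2.18 in B16-IFNA4 and 1.81 in B16-IFNA9, against 0.009 and -0.003 over all tested genes. Both comparisons share the same B16-GFP tumors.

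**Figure D1:**
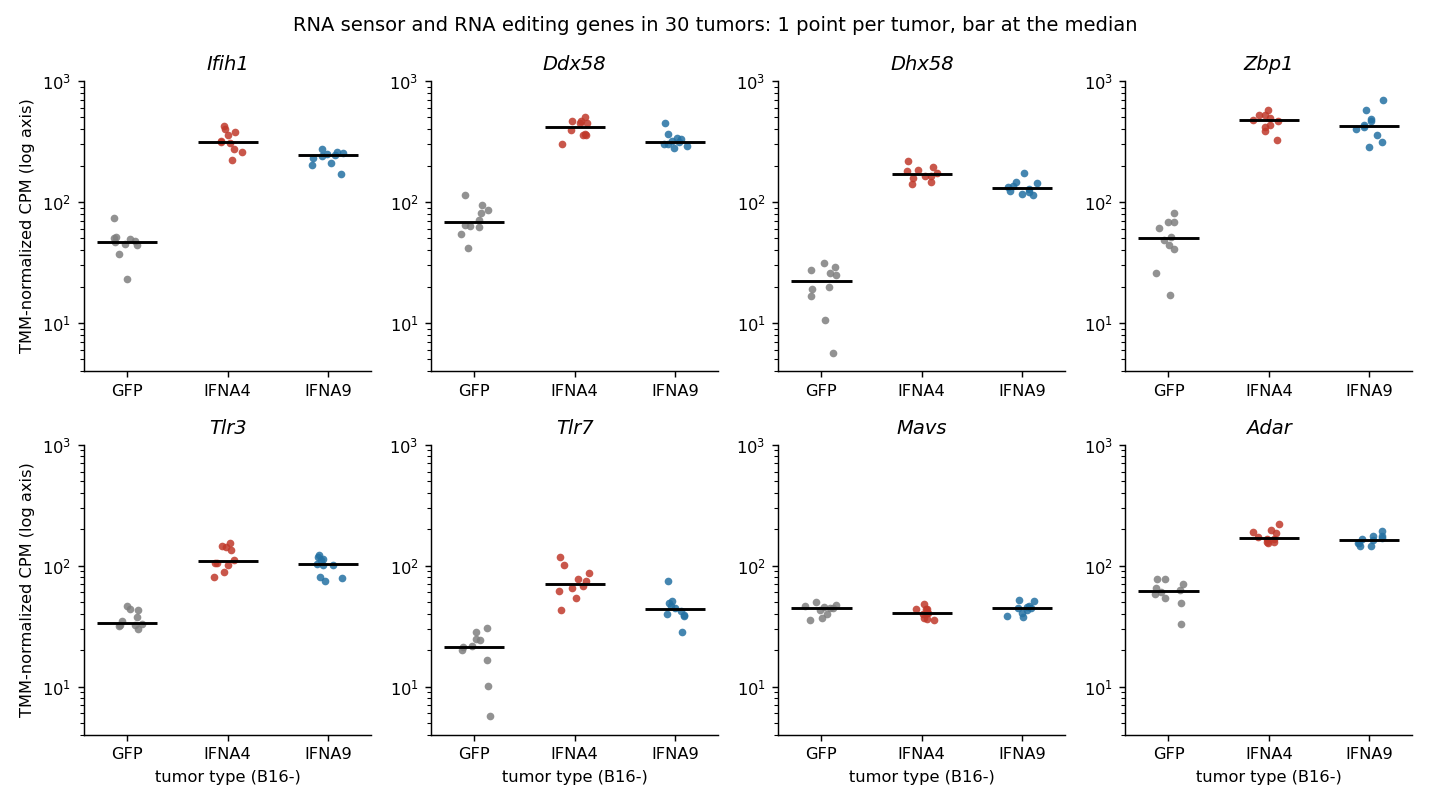
Levels of the 8 genes in TMM-normalized CPM on a log axis, with 1 point for each of the 30 tumors and a bar at the median of 10. Points of the interferon-secreting types lie above all B16-GFP points in 6 panels, Tlr7 overlaps between B16-GFP and B16-IFNA9, and Mavs overlaps throughout, between 35.3 and 51.6 CPM.

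Ifih1 (ENSMUSG00000026896.14, chr2:62595798-62646255, GRCm38), encoding MDA5, ranged from 23 to 73.8 CPM in B16-GFP (median 47), from 223 to 428 in B16-IFNA4 (median 314) and from 170 to 272 in B16-IFNA9 (median 243). The lowest interferon-type tumor was 2.3 times above the highest B16-GFP tumor. The log2 fold change against B16-GFP was 2.80 ± 0.14 (SE, adjusted p = 3.76e-16) in B16-IFNA4 and 2.32 ± 0.14 (adjusted p = 4.94e-14) in B16-IFNA9. Ddx58 (ENSMUSG00000040296.15, chr4:40203773-40239828), encoding RIG-I, ranged from 41.4 to 114 CPM in B16-GFP (median 68.1), 301 to 505 in B16-IFNA4 (median 421) and 280 to 450 in B16-IFNA9 (median 315). Again no interferon-type tumor overlapped with B16-GFP. Its log2 fold changes were 2.49 ± 0.14 (adjusted p = 1.75e-15) and 2.16 ± 0.13 (adjusted p = 9.24e-14).

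Dhx58 (ENSMUSG00000017830.15, chr11:100694884-100704271), encoding LGP2, ranged from 5.63 to 31.2 CPM in B16-GFP (median 22.4), from 141 to 217 in B16-IFNA4 (median 169) and from 115 to 173 in B16-IFNA9 (median 130). Of the 3 helicase genes it had the largest log2 fold changes, 3.03 ± 0.19 (adjusted p = 2.42e-14) and 2.66 ± 0.19 (adjusted p = 9e-13). Its coefficient of variation was 39.4% in B16-GFP, where replicate 7 held 5.63 CPM from 63 counts, and 13.3% and 13.1% in the interferon types. An annotated antisense gene, Dhx58os, overlaps it and held 2 to 64 counts per tumor, against at least 63 for Dhx58.

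Zbp1 (ENSMUSG00000027514.14, chr2:173206612-173218923), the Z-nucleic acid sensor, ranged from 17.2 to 80.8 CPM in B16-GFP (median 50.3), from 327 to 581 in B16-IFNA4 (median 473) and from 283 to 694 in B16-IFNA9 (median 423). It had the largest fold changes of the 8 genes in both types, with log2 fold changes of 3.19 ± 0.21 (adjusted p = 6.15e-14) and 3.12 ± 0.21 (adjusted p = 3.06e-13). B16-IFNA9 tumors spread more widely than B16-IFNA4 tumors, with coefficients of variation of 27.6% and 16.2%, a difference that was not tested. B16-IFNA9 replicate 8 was the highest of all 30 tumors.

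Tlr3 (ENSMUSG00000031639.12, chr8:45395665-45411080), the endosomal dsRNA receptor, ranged from 29.8 to 46.2 CPM in B16-GFP (median 33.8), from 80.4 to 155 in B16-IFNA4 (median 109) and from 74.2 to 123 in B16-IFNA9 (median 103). The types did not overlap with B16-GFP, and the log2 fold changes were 1.69 ± 0.12 (adjusted p = 5.79e-13) and 1.46 ± 0.12 (adjusted p = 2.3e-11). B16-GFP replicate 7, which was lowest for 6 of the other genes, was highest for Tlr3. Tlr7 (ENSMUSG00000044583.13, chrX:167304929-167330558), the endosomal receptor for single-stranded RNA, ranged from 5.72 to 30.5 CPM in B16-GFP (median 21.3), from 42.7 to 117 in B16-IFNA4 (median 71.2) and from 28.2 to 74.6 in B16-IFNA9 (median 43.5). All B16-IFNA4 tumors but only 9 of 10 B16-IFNA9 tumors lay above every B16-GFP tumor, replicate 5 being the exception. The log2 fold changes were 1.88 ± 0.22 (adjusted p = 1.17e-08) and 1.16 ± 0.21 (adjusted p = 4.1e-05).

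Mavs (ENSMUSG00000037523.13, chr2:131234063-131248025), the adaptor through which RIG-I and MDA5 signal, ranged from 35.3 to 50.2 CPM in B16-GFP (median 44.7), from 35.8 to 48.2 in B16-IFNA4 (median 40.8) and from 37.9 to 51.6 in B16-IFNA9 (median 44.6). The 3 types overlapped almost entirely, and no comparison was called. The log2 fold change was -0.09 in B16-IFNA4 (95% interval -0.23 to 0.06, adjusted p = 0.305) and 0.04 in B16-IFNA9 (-0.11 to 0.18, adjusted p = 0.695). Scaled by library totals in place of TMM the values were 0 and 0.14, also not called. With coefficients of variation of 9.82% to 10.6%, Mavs was the least variable of the 8 genes in B16-GFP and B16-IFNA4.

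Adar (ENSMUSG00000027951.16, chr3:89715022-89753446), the dsRNA editing enzyme, ranged from 32.7 to 77.9 CPM in B16-GFP (median 61.8), from 153 to 220 in B16-IFNA4 (median 169) and from 146 to 192 in B16-IFNA9 (median 164). No interferon-type tumor reached down to the B16-GFP range, and within each interferon type the highest tumor was less than 1.5 times the lowest. The log2 fold changes were 1.53 ± 0.11 (adjusted p = 3.18e-13) and 1.42 ± 0.11 (adjusted p = 3.59e-12). Chrnb2, a gene on the opposite strand that overlaps Adar, held 57 to 184 counts per tumor, against at least 366 for Adar. RNA of the enzyme was measured here, and editing itself was not analysed.

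**Figure D2:**
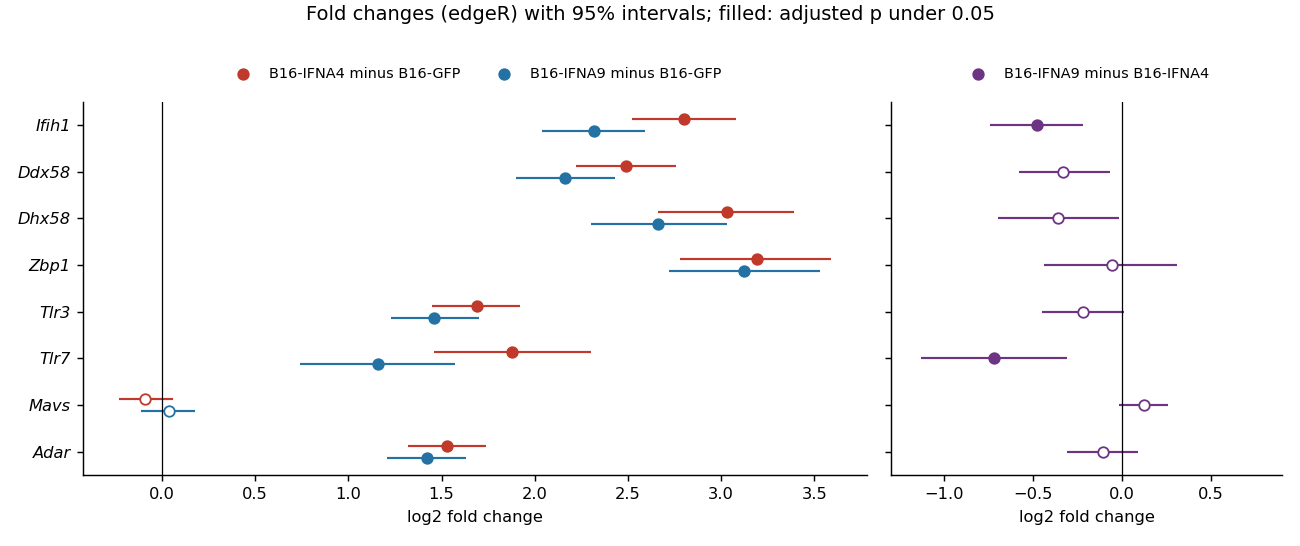
log2 fold changes with 95% intervals for the 8 genes, filled where the adjusted p was under 0.05, for each interferon type minus B16-GFP (left) and for B16-IFNA9 minus B16-IFNA4 (right). Against B16-GFP the values run from 1.16 for Tlr7 to 3.19 for Zbp1, with Mavs at -0.09 and 0.04, while between the interferon types only Ifih1 (-0.48) and Tlr7 (-0.72) are filled.

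Between the interferon types, Tlr7 and Ifih1 were lower in B16-IFNA9 than in B16-IFNA4 and the other 6 genes were not called. Tlr7 was at 45.4 ± 12.1 CPM (SD, n = 10) in B16-IFNA9 and 74.9 ± 22.3 in B16-IFNA4, a log2 fold change of -0.72 ± 0.21 (adjusted p = 0.0149). Ifih1 was at 233 ± 30.8 and 326 ± 65.1 CPM, a log2 fold change of -0.48 ± 0.13 (adjusted p = 0.0114). Called lower were thus 2 of 8, where 7.26% of tested genes were called lower, 10.5% higher and 17.8% in either direction. Both types overlapped for every one of the 8 genes (2.83% of tested genes did not overlap), although 5 B16-IFNA9 tumors lay below all B16-IFNA4 tumors for Tlr7, and 7 did so for Dhx58. Markers of other cells moved with this comparison too. Lower in B16-IFNA9 were 1 of 6 leukocyte, 2 of 5 macrophage and monocyte, 3 of 6 plasmacytoid dendritic cell, 2 of 6 T and NK cell, 1 of 2 B cell, 1 of 4 fibroblast, 4 of 6 endothelial and 5 of 6 skeletal muscle markers, and higher were 3 of 6 XCR1 dendritic cell and 2 of 3 melanocyte markers, with 0 of 5 keratinocyte markers called. The part of these cell types in the difference was not tested, apart from the leukocyte score given further on.

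The remaining differences between the interferon types were small or uncertain. Ddx58 differed by -0.33 (95% interval -0.58 to -0.07, adjusted p = 0.0789) and Dhx58 by -0.36 (-0.70 to -0.02, adjusted p = 0.149). Both were called when the fit held only these 20 tumors (adjusted p = 0.0147 and 0.00164) and when B16-GFP replicate 7, which is in neither type, was left out of the shared estimate of spread (0.0314 and 0.025). Ddx58 alone was also called without B16-IFNA4 replicate 8 (0.0499) or B16-IFNA9 replicate 10 (0.0415). The intervals for Zbp1 (-0.44 to 0.31), Tlr3 (-0.45 to 0.01), Adar (-0.31 to 0.09) and Mavs (-0.02 to 0.26) all included 0, and for Adar a difference larger than 0.31 in either direction lies outside the interval.

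Levels of different genes were compared per kilobase of merged exons, since a longer transcript collects more reads. Merged exons join all annotated transcripts of a gene (10 for Ddx58 and 4 for Mavs), so this length can exceed that of the transcripts present. The order of the genes and the size of their ratios therefore depend on the annotation. In B16-GFP the 8 genes lay close together, from 14.4 CPM per kilobase for Zbp1 through 13 for Mavs and 10.4 for Ddx58 to 7.51 for Adar, 6.99 for Tlr3, 6.43 for Dhx58, 5.73 for Ifih1 and 4.97 for Tlr7. Of the neighbors in that order, Ddx58 stood above Adar (0.45 ± 0.20 on the log2 scale, SD of the difference over tumors) and Mavs above Ddx58 (0.37 ± 0.38) in 9 of 10 tumors each, and the other pairs kept their order in 4 to 7 of 10 tumors. In B16-IFNA4 the order was Zbp1 (131), Ddx58 (58.4), Dhx58 (52.5), Ifih1 (39.9), Tlr3 (22.5), Adar (21.7), Tlr7 (18.3) and Mavs (12.2). There Zbp1 stood above Ddx58 and Ifih1 above Tlr3 in 10 of 10 tumors, whereas Ddx58 and Dhx58, Tlr3 and Adar, Adar and Tlr7, and Tlr7 and Mavs differed by less than the SD of their difference over tumors, with the order kept in 5 to 8 of 10. In B16-IFNA9 the order was Zbp1 (125), Ddx58 (46.6), Dhx58 (40.8), Ifih1 (28.6), Adar (20.1), Tlr3 (19.3), Mavs (13.3) and Tlr7 (11.1). Here too Zbp1 was above Ddx58 in 10 of 10 tumors, and Ddx58 and Dhx58, Adar and Tlr3, and Mavs and Tlr7 differed by less than that SD, with the order kept in 6 to 8 of 10.

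**Figure D3:**
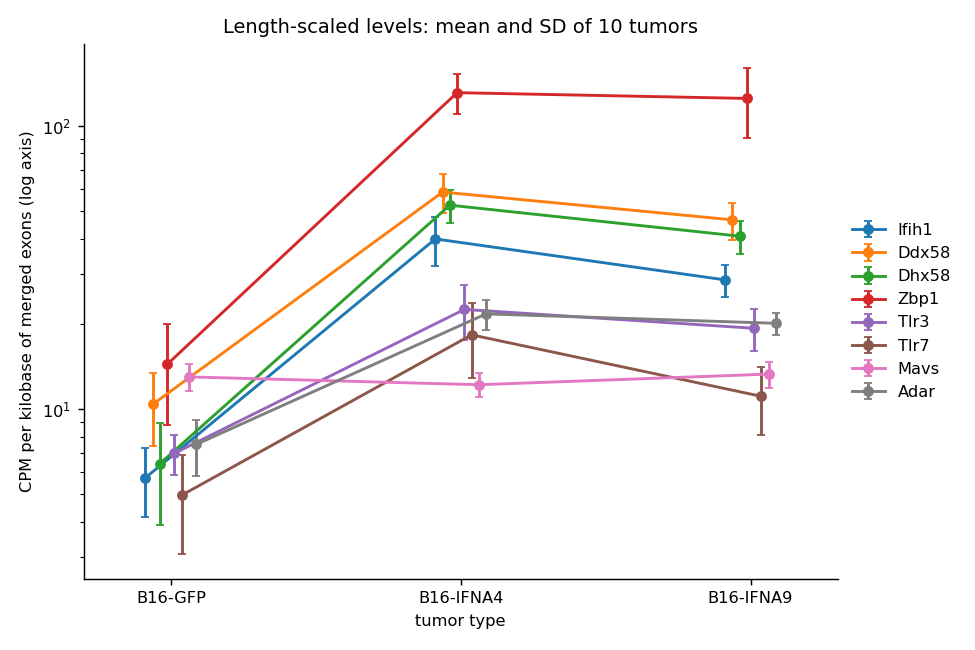
Mean and SD over 10 tumors of the length-scaled level of each gene (CPM per kilobase of merged exons, log axis) in the 3 tumor types. Mavs stays between 12.2 and 13.3 while the other 7 rise, so that it moves from near the top of the order in B16-GFP to the bottom or next to it in the interferon types.

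The balance between receptors and their adaptor therefore differed between types on the length-scaled levels. The ratio of Ifih1 to Mavs had a median of 0.431 in B16-GFP (range 0.204 to 0.666), 3.11 in B16-IFNA4 (2.09 to 4.74) and 2.14 in B16-IFNA9 (1.37 to 2.95). The ratio of Ddx58 to Mavs was likewise 0.787 (0.424 to 1.19), 4.75 (3.27 to 6.49) and 3.41 (2.68 to 4.57). In neither ratio did an interferon-type tumor overlap with a B16-GFP tumor.

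Relative to the sensors that ADAR editing is known to restrain, Adar was lower in the interferon types. The ratio of Adar to Ifih1 had a median of 1.36 in B16-GFP (1.06 to 1.7), 0.562 in B16-IFNA4 (0.385 to 0.74) and 0.712 in B16-IFNA9 (0.54 to 0.908), and the ratio of Adar to Zbp1 was 0.557 (0.388 to 0.907), 0.167 (0.125 to 0.208) and 0.155 (0.12 to 0.236). For both ratios every B16-GFP tumor lay above every interferon-type tumor. The ratio of Ifih1 to Ddx58 differed less, with medians of 0.551, 0.691 and 0.632 and overlapping ranges (0.471 to 0.683, 0.6 to 0.737 and 0.472 to 0.72), although 7 of 10 B16-GFP tumors lay below every B16-IFNA4 tumor. These ratios are descriptions of RNA levels, without a test.

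The surrounding pathway was described by a list of 76 genes in 7 roles, of which 66 were tested. In B16-IFNA4, 51 of the 66 (77.3%, against 65.4% of all tested genes) were called against B16-GFP, with a median log2 fold change of 0.52. Of these, 40 were higher (60.6%, against 31.3%) and 11 lower (16.7%, against 34.1%). In B16-IFNA9, 43 were called (65.2%, against 55.6%), 36 higher (54.5%, against 26.9%) and 7 lower (10.6%, against 28.7%), with a median of 0.36. The 8 genes had larger medians than the list around them in both comparisons (2.18 and 1.81). The list's largest rises were Ifit3 (4.24 in B16-IFNA4 and 3.45 in B16-IFNA9), Ifit1 (3.81 and 3.05), whose protein binds viral RNA ends, and Tlr9 (3.80 and 2.94), an endosomal DNA receptor.

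The role named dsRNA-activated effectors, in which Ifit1, Ifit2 and Ifit3 were also listed, had the largest median changes of the roles. Of 15 tested, 12 were higher in each interferon type (31.3% and 26.9% of all tested genes), with medians of 2.73 and 1.95, and 1 was lower in B16-IFNA4. Eif2ak2, encoding the dsRNA-activated kinase PKR that stops translation, rose by log2 fold changes of 2.06 ± 0.16 and 1.95 ± 0.15 (adjusted p = 1.75e-12 and 1.12e-11). Ifit3, the gene of this group with the most reads, went from 81.6 CPM to 1550 and 892. Dhx9 and Dhx33, helicases of general RNA metabolism, had log2 fold changes between -0.18 and 0.10 and were not called, and Dhx15, another such helicase, was the 1 that fell in B16-IFNA4 (by 0.24, adjusted p = 0.021) and had -0.10 in B16-IFNA9 (adjusted p = 0.365).

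Regulators and signaling partners of the cytosolic sensors had smaller median changes. Of 8 tested ligases and cofactors (medians 0.44 and 0.32), 6 were higher and 1 lower in B16-IFNA4 (31.3% and 34.1% of all tested genes) and 4 higher and 1 lower in B16-IFNA9 (26.9% and 28.7%), and the 5 of 8 called in B16-IFNA9 lie near the 55.6% of all genes. Trim25, a ubiquitin ligase of the RIG-I pathway, rose by 1.65 ± 0.13 and 0.96 ± 0.13, and Rnf135 (Riplet), another, by 1.12 ± 0.10 and 1.29 ± 0.10, whereas Mex3c, also a ligase, had values of -0.07 and -0.14 and was not called (adjusted p = 0.475 and 0.156). Anxa2, with the most reads of this group, rose in B16-IFNA4 (0.25, adjusted p = 0.0273) and had a value of -0.08 in B16-IFNA9 (adjusted p = 0.505). Of 12 tested genes of MAVS signaling (medians 0.21 and 0.24), 6 were higher and 0 lower in B16-IFNA4 (31.3% and 34.1% of all tested genes), fewer called than the 65.4% of all genes, and 7 higher and 1 lower in B16-IFNA9 (26.9% and 28.7%). Small changes were called for the factor Irf3 (0.23 in both, adjusted p = 0.0107 and 0.0133) and the autophagy receptor Tax1bp1 (0.19 and 0.28). Ikbke, a kinase downstream of MAVS, rose by 0.84 ± 0.11 and 0.88 ± 0.11 without overlap with B16-GFP in either type, and Irf7, the interferon-inducible factor, rose from 63 CPM to 685 and 353 (log2 fold changes 3.44 ± 0.21 and 2.49 ± 0.20). Tradd, an adaptor downstream of MAVS, fell in B16-IFNA9 by 0.39 (adjusted p = 0.00607).

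Among 11 genes of endosomal Toll-like receptor signaling, 6 were higher and 2 lower in B16-IFNA4 (31.3% and 34.1% of all tested genes), and 5 were higher and 0 lower in B16-IFNA9 (26.9% and 28.7%). The 8 and 5 of 11 called in either direction stand against 65.4% and 55.6% of all genes. Of the adaptors, Myd88, which serves TLR7, rose by 1.12 ± 0.11 and 0.49 ± 0.11 (adjusted p = 1.07e-09 and 0.000576), and Ticam1 (TRIF), which serves TLR3, had values of 0.20 and 0.10 and was not called (adjusted p = 0.177 and 0.531). Unc93b1, the chaperone that brings these receptors to endosomes, rose in B16-IFNA4 (0.49, adjusted p = 0.0175) and had a value of 0.32 in B16-IFNA9 (adjusted p = 0.132). Hsp90b1, a chaperone of the endoplasmic reticulum with the most reads of this group, fell in B16-IFNA4 by 0.50 (adjusted p = 0.000179).

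Of the 5 tested partners of ZBP1 in cell death, 3 were higher in each interferon type (31.3% and 26.9% of all tested genes), and 2 were lower in B16-IFNA4 and 1 in B16-IFNA9, near the shares of all genes (34.1% and 28.7%). Mlkl, the executor of necroptosis, rose by 1.28 ± 0.11 and 1.24 ± 0.11 (adjusted p = 4.8e-11 and 2.03e-10), and Casp8, with the most reads, by 0.55 and 0.52. Fadd, which links death receptors to Casp8, fell by 0.58 and by 0.41, and the caspase gene Casp6 fell in B16-IFNA4 by 0.32 (adjusted p = 0.000343) and had -0.02 in B16-IFNA9 (adjusted p = 0.803).

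Of 10 other tested editing genes, 2 were higher and 5 lower in B16-IFNA4 (31.3% and 34.1% of all tested genes) and 2 higher and 4 lower in B16-IFNA9 (26.9% and 28.7%), so that these counts lie near the shares of all genes. The 2 that rose in both were the cytidine deaminases Apobec1 (2.05 ± 0.18 and 1.52 ± 0.18) and Apobec3 (1.23 ± 0.11 and 0.93 ± 0.11). Adarb1, the related adenosine deaminase ADAR2, had values of 0.17 and -0.01 and was not called (adjusted p = 0.171 and 0.949), and Zfr, with the most reads of this group, had -0.19 and 0.02 (adjusted p = 0.0883 and 0.877). Those that fell included Ilf2, a dsRNA-binding partner (by 0.71 and 0.37), Srsf9, a splicing factor (by 0.55 and 0.59), and Aimp2, a scaffold of tRNA synthetases (by 0.59 and 0.27). Adat2, a tRNA deaminase, fell in B16-IFNA4 by 0.60 and had -0.19 in B16-IFNA9 (adjusted p = 0.158).

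Of 5 tested genes that degrade or process self RNA, 5 were higher in B16-IFNA4 and 3 in B16-IFNA9 (31.3% and 26.9% of all tested genes). Samhd1, with the most reads, which also degrades nucleotides, rose by 2.02 ± 0.15 and 1.72 ± 0.15, and the exonuclease Xrn1 by 0.90 ± 0.10 and 0.78 ± 0.10.

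**Figure D4:**
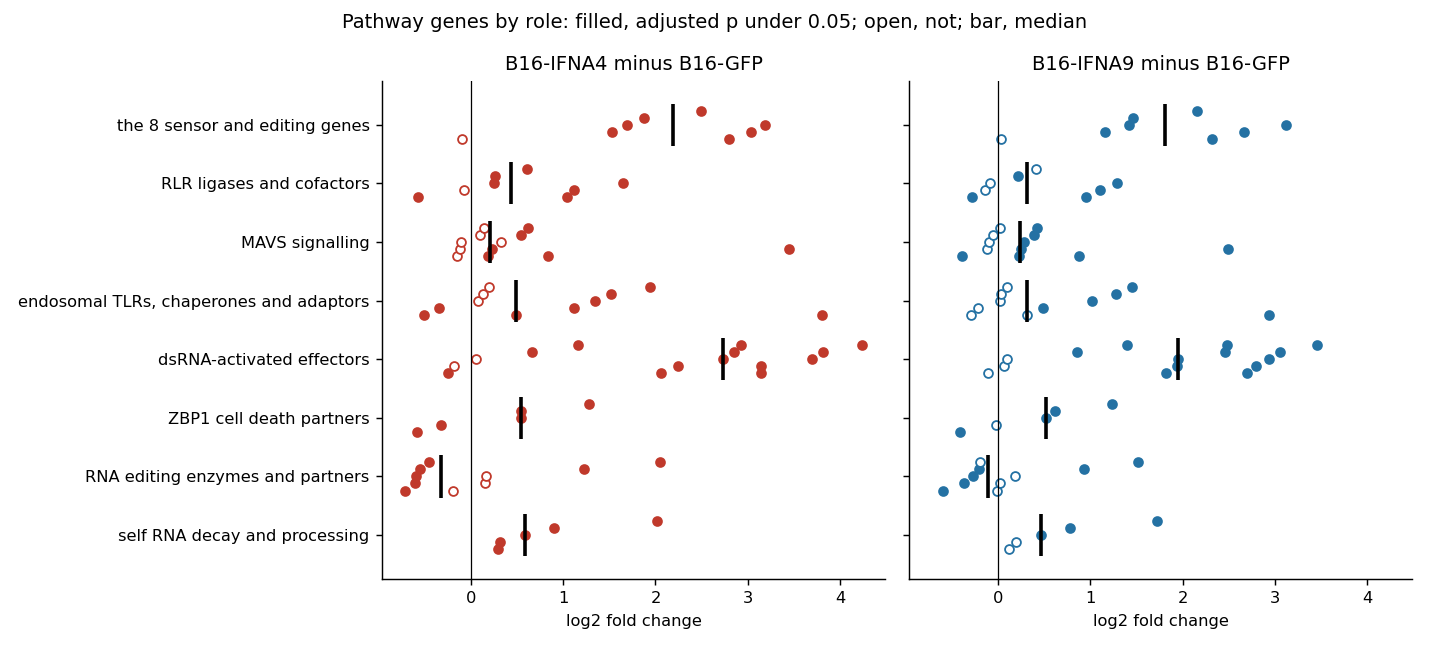
log2 fold changes of the 8 genes and of 66 pathway genes by role, for each interferon type minus B16-GFP, with 1 point per gene (filled where the adjusted p was under 0.05) and a bar at the median. The 8 genes and the dsRNA-activated effectors have the largest medians (2.18 and 2.73 in B16-IFNA4), and the editing enzymes and partners are the only role with a median below 0 (-0.32 and -0.10).

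Between the interferon types, 19 of the 66 pathway genes were called (28.8%, against 17.8% of all tested genes). In B16-IFNA9, 13 were lower (19.7%, against 7.26%) and 6 higher (9.09%, against 10.5%), or 9 lower and 7 higher when scaled by library totals. The largest falls were Irf7 (by 0.96, adjusted p = 0.000707), Oasl1, an interferon-inducible inhibitor of Irf7 translation (by 0.92, adjusted p = 0.00154), and Tlr9 (by 0.85, adjusted p = 0.013). Trim25 was also lower (by 0.69, adjusted p = 0.000209). The largest rises were Adat2 (0.41, adjusted p = 0.0143), Ilf2 (0.34, adjusted p = 0.00127) and Aimp2 (0.32, adjusted p = 0.0313). Thus Myd88 and Tlr7 were both lower in B16-IFNA9 (Myd88 by 0.63, adjusted p = 0.000191), and the 10 B16-IFNA9 tumors all lay below the 10 B16-IFNA4 tumors for Myd88 (0.741% of tested genes), which was not so for Tlr7.

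Of the 66 tested pathway genes, 56 had a promoter in the table. An ISRE core was found for 9 of these, and 9 of the 9 were called higher in B16-IFNA4 and in B16-IFNA9. Of the 47 without a match to that exact pattern in the window, 26 (55.3%) were called higher in B16-IFNA4 and 24 (51.1%) in B16-IFNA9. These shares were also above the 31.3% and 26.9% of all tested genes. For the pathway genes, elements that match less exactly or lie farther from the start were not searched for. No test was made of this split.

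Leukocyte marker RNA moved with the tumor types. The marker counts that follow stand against 31.3% of all tested genes called higher and 34.1% lower in B16-IFNA4, and 26.9% and 28.7% in B16-IFNA9. All 6 of 6 leukocyte markers were higher in both interferon types than in B16-GFP, and their summed level ran from 287 to 858 CPM in B16-GFP, 1250 to 2680 in B16-IFNA4 and 888 to 1810 in B16-IFNA9. Macrophage and monocyte markers, of which 3 of 5 tested were higher in each interferon type, summed to 151 to 639, 930 to 1580 and 602 to 1080 CPM. T and NK cell markers were higher for 6 of 6 in each and summed to 4.29 to 23.2, 70.5 to 173 and 58.5 to 142 CPM. Plasmacytoid dendritic cell markers, a cell type known for Tlr7, were higher for 6 of 6 in B16-IFNA4 and 4 of 6 in B16-IFNA9, with sums of 77.3 to 155, 150 to 194 and 123 to 191 CPM, and no marker of these lists was at 0 in every tumor. Tcf4, which other cells also express, made up most of that sum, with means of 111, 139 and 130 CPM, while the more specific Siglech was at 0.933, 3.1 and 1.54 CPM (log2 fold changes 1.70 and 0.70, adjusted p = 1.99e-05 and 0.0539). Of 2 tested B cell markers, 1 was higher in each, with sums of 0.759 to 3.05, 3.51 to 8.93 and 1.97 to 4.55 CPM. XCR1 dendritic cell markers (191 to 259, 200 to 269 and 280 to 417 CPM) were higher for 4 and lower for 1 of 6 in B16-IFNA4 and higher for 5 of 6 in B16-IFNA9. Among other lists, 4 of 5 keratinocyte markers were higher in B16-IFNA4 (2 in B16-IFNA9), 2 of 4 fibroblast markers were higher in B16-IFNA4 and 1 of 4 in B16-IFNA9, near the shares of all genes, 4 of 6 endothelial markers were lower in each type (1 was higher in B16-IFNA4), and 4 of 6 skeletal muscle markers were lower in B16-IFNA9 (none called in B16-IFNA4). The melanocyte markers of the tumor cells fell for 3 of the 3 tested in both types (medians -1.24 and -0.97), as for Tyrp1, a pigment enzyme, at 9340 CPM in B16-GFP, 2380 in B16-IFNA4 and 4160 in B16-IFNA9. Only the leukocyte markers were entered into a fit, and the part of the other cell types in the levels of the 8 genes was not tested.

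With the mean log2 level of the 6 leukocyte markers added to the fit, Tlr7 no longer differed past the threshold, while 6 of the 8 genes kept their calls against B16-GFP. In that fit 4.23% of all tested genes were called in B16-IFNA4 and 6.29% in B16-IFNA9. Tlr7 had a log2 fold change of 0.08 ± 0.34 in B16-IFNA4 (adjusted p = 0.957) and -0.18 ± 0.27 in B16-IFNA9 (adjusted p = 0.773). Tlr3 was nearly as large as before, at 1.56 ± 0.26 and 1.37 ± 0.21 (adjusted p = 0.000156 and 4.78e-05). Ifih1 was at 1.66 and 1.46, Ddx58 at 1.62 and 1.53, Dhx58 at 1.88 and 1.82, Zbp1 at 1.54 and 1.87, and Adar at 0.95 and 0.99. Between the interferon types 0 of the 8 were then called, with Tlr7 at -0.27 (adjusted p = 0.334) and Ifih1 at -0.19 (adjusted p = 0.212). The leukocyte score itself did not overlap between B16-GFP (5.17 to 6.84) and B16-IFNA4 (7.47 to 8.41) or B16-IFNA9 (7.04 to 7.91). The fold changes of this fit against B16-GFP therefore extend the relation within types beyond the scores observed in each. The fit also takes up part of the difference between the types, so it cannot separate leukocyte content from the other differences.

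Within a type, levels were compared with the same score over 10 tumors, in 24 relations. Permutation p-values (two-sided) came from 100000 resamples and were adjusted over the 24. Tumors of a type carried the same transgene, but how much interferon each made was not examined here. Pearson's r passed the adjusted threshold in 11 and Spearman's rho in 1. Zbp1 followed the score most closely, with r = 0.96 and rho = 0.93 in B16-IFNA4 (adjusted permutation p = 0.00072 and 0.00768), and r = 0.89 without the 2 tumors farthest from the median score. In B16-IFNA9 its r was 0.79 (rho = 0.75, adjusted permutation p = 0.0194 and 0.0808), and 0.63 without the 2 farthest tumors. Tlr7 had r = 0.82 in B16-GFP and 0.79 in B16-IFNA4 (rho = 0.32 and 0.68, adjusted permutation p = 0.0218 and 0.0194 for r, 0.519 and 0.14 for rho), but r fell to -0.20 and 0.36 without the 2 farthest tumors, so these relations rest on those tumors. Ifih1 behaved alike in B16-GFP, where r went from 0.84 (rho = 0.55, adjusted permutation p = 0.0194 and 0.231) to 0.26 without replicates 2 and 7. In B16-IFNA9 the r of Ifih1 was 0.78 with and without the 2 farthest tumors (rho = 0.78, adjusted permutation p = 0.0194 and 0.0666), whereas in B16-IFNA4 it fell from 0.79 (rho = 0.79, adjusted permutation p = 0.0194 and 0.0666) to 0.44. Ddx58 had r = 0.79 in B16-GFP (rho = 0.52, adjusted permutation p = 0.0194 and 0.251) and 0.85 in B16-IFNA4 (rho = 0.78, adjusted permutation p = 0.018 and 0.0666), with r of 0.38 and 0.60 without the 2 farthest tumors. Dhx58 had r = 0.85 in B16-GFP (rho = 0.62, adjusted permutation p = 0.0194 and 0.204), and 0.74 without them. Zbp1 in B16-GFP had r = 0.81 (rho = 0.61, adjusted permutation p = 0.0194 and 0.204), and 0.70 without them. For Tlr3, Mavs and Adar no relation passed the adjusted threshold in any type, with adjusted permutation p of at least 0.0622.

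**Figure D5:**
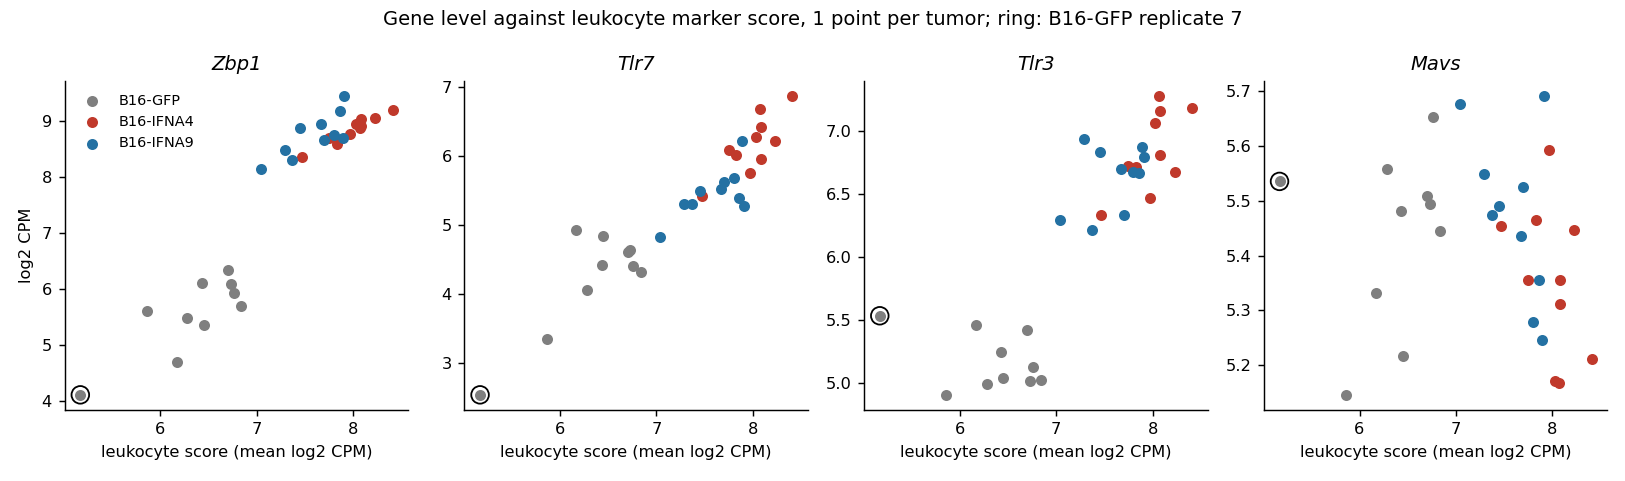
Level of Zbp1, Tlr7, Tlr3 and Mavs (log2 CPM) against the leukocyte score (mean log2 CPM of 6 markers), with 1 point per tumor colored by type and a ring around B16-GFP replicate 7. Within the interferon types Zbp1 climbs with the score, and the ringed tumor has the lowest score, the lowest Zbp1 and Tlr7 and the highest Tlr3 of B16-GFP.

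The genes also differed in how they varied from tumor to tumor within a type. After the mean of each type was subtracted, the Pearson correlation of log2 CPM over the 30 tumors, which share library and composition, served as a measure of likeness and is given without a test. Ifih1 was most like Trim30a (0.96), Parp9 (0.94) and Samd9l (0.93), Ddx58 most like Rtp4 (0.89), Rnf213 (0.88) and Rsad2 (0.87), and Dhx58 most like Irf7 (0.94), Oasl1 (0.94) and Oas1g (0.92). Zbp1 was most like Oas3, Gm15753 and Themis2 (0.94 each), and Adar most like Helz2 (0.90), Oas1b (0.89) and Myo9b (0.88). The endosomal receptors had other neighbors, since Tlr7 was most like Tlr8 (0.94), Fcgr2b (0.93) and Cd84 (0.93), and Tlr3 most like Pnpt1 (0.87), Capza2 (0.86) and Gm6335 (0.86). Mavs was most like Fxr2, Speg and Bcar1 (0.80 each).

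Among the 8 genes themselves, the closest pairs were Ifih1 and Ddx58 (0.86), Dhx58 and Zbp1 (0.86), Ifih1 and Tlr7 (0.84) and Dhx58 and Adar (0.83). Without B16-GFP replicate 7 these were 0.81, 0.78, 0.76 and 0.66. For these values the type means subtracted still included that tumor, so the other B16-GFP tumors kept an offset from the interferon types. Leaving out that tumor raised the likeness of Tlr3 to Ifih1 from 0.47 to 0.80 and lowered that of Dhx58 to Tlr7 from 0.37 to -0.14. Without it, Tlr3, Tlr7, Ifih1 and Ddx58 varied together (0.52 to 0.81), and Dhx58, Zbp1 and Adar did (0.56 to 0.78), but the groups were not separate, since Zbp1 was also like Ifih1 (0.61) and Ddx58 (0.56), and Ddx58 like Adar (0.50).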

How the data were processed

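Total RNA from whole tumors was made into stranded mRNA libraries and read as 50-base single-end reads. The authors aligned the reads with HISAT2 (2.0.4 per the labels) after FastQC (0.11.3) and counted them per gene with summarizeOverlaps, and the values deposited are these raw counts. The labels name build mm10 and the paper's methods another, so coordinates are those of the same gene identifiers in GENCODE M21 (GRCm38), in which 39495 of 39676 identifiers matched. The annotation release and strand setting of the counting are not given in the sources used here. Genes averaging 10 or more counts per tumor were fitted with edgeR 4.0.16 (R 4.3.3; TMM, robust quasi-likelihood) on all 30 tumors, which gave the log2 fold changes, and DESeq2 1.42.0 was an alternative. The SE is the size of the log2 fold change over the square root of F, intervals are 1.96 SE wide on each side, and log2 CPM used a prior count of 2. Scripts were tested on simulated data.

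The 8 genes, the pathway and marker lists and the leukocyte fit were chosen with earlier results of these data known. The text names all 8 genes, the 3 largest rises and falls of the pathway list per comparison, the gene of each role with the most reads and the 3 most alike genes of each of the 8. Other pathway genes were named for their role after their values were seen. Of the 76 pathway genes, 9 are not analysed here and 1 was under the filter. Tumors carry replicate numbers but are separate tumors, and alternatives were other scalings, filters, samples, a replicate block, the leukocyte score and leaving out each tumor.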

Additional observations from a re-analysis of the deposited data

Results flagged for a closer look

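Within each type, values of the 8 genes and of the marker lists were searched for a tumor far from the other 9 by Dixon's ratio, and 5 of 57 were found where chance alone gives about 2.85. Adar in B16-GFP replicate 7 was at 5.04 log2 CPM, against 5.64 to 6.29 in the other 9 tumors. The same tumor was lowest for the mean log2 CPM of macrophage and monocyte markers (4.65, others 5.73 to 6.68) and of keratinocyte markers (6.96, others 8.90 to 9.93). Skeletal muscle markers were highest in B16-IFNA9 replicate 5 (10.71, others 7.90 to 9.31), which was also the lowest B16-IFNA9 tumor for Ifih1, Zbp1 and Tlr7. Keratinocyte markers were lowest in B16-IFNA9 replicate 10 (8.22, others 9.59 to 10.22), which was the highest B16-IFNA9 tumor for Ddx58 and Tlr3. Whether these markers had a part in the levels of the 8 genes was not tested.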

How the results depend on the processing

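The 7 calls against B16-GFP held in each interferon type under every other scaling, filter and tool, with the 20 tumors alone, and in all 30 fits that left out a tumor (7 to 7 called), except with the leukocyte score, where 6 were called in each. With that score, 18, 17 and 9 pathway genes were called (B16-IFNA4 and B16-IFNA9 against B16-GFP, and B16-IFNA9 against B16-IFNA4), against 4.23%, 6.29% and 10.9% of all tested genes, and 0 of the 8 genes between the interferon types. The sign turned for Tlr7 in B16-IFNA9 against B16-GFP (-0.18) and, between the interferon types, for Zbp1 (0.33) and Adar (0.04), neither of which was called in any fit. Between the interferon types 4 of the 8 were called with the 20 tumors alone, where 27.1% of all tested genes were called against 17.8% with all 30, and 2 to 4 when a tumor was left out, 4 only without B16-GFP replicate 7, and Zbp1 ranged from -0.16 to 0.02. Leaving out a tumor gave 49 to 51, 41 to 45 and 13 to 23 pathway genes. Tumors with the same replicate number did not vary together (median correlations -0.0297, -0.0953 and -0.00522, with 2, 2 and 0 of 10 pairs over 0.1, and 1, 1 and 0 tumors most like their own number), so the numbers were not taken as a pairing. With the replicate block 7, 7 and 2 of the 8 genes and 50, 42 and 14 pathway genes were called, and no call on the 8 genes changed. Library totals moved the share of higher among all called genes in B16-IFNA9 against B16-GFP from 48.3% to 58.4%. The cause of these shifts was not tested. With the lowest count of any of the 8 genes at 63, depth did not limit their detection.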
